A study of Bos taurus with 15 samples.

Results

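In the mammary gland of lactating cows given dexamethasone (DEX), 55 genes changed at 24 h and were still changed in the same direction at 72 h, out of 4795 genes whose mean reached 4 normalized counts. Of these, 25 had risen and 30 had fallen. A normalized count is the number of reads relative to the size of the library (CPM), adjusted by a scaling factor for each library. Members were chosen from the data. In cows 2, 3 and 4, the log2 of the normalized count plus 0.5 was taken at each time minus that at 0 h in the same cow. The mean difference over the 3 cows had to reach 0.8 at 24 h and 0.5 at 72 h, and all cows had to move the same way at both times. The values at 24 h and 72 h against 0 h are therefore a description of what was selected and carry no test. Both changes were measured against the same 0 h libraries, which favours this pattern: a 0 h library that was low by chance makes both later times look high.

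Needle biopsies were taken from non-pregnant Holstein cows in their second lactation, at 0 h and at 12, 24 and 72 h after a single intramuscular injection of 40 mg of DEX. Every time point came from a different gland of the udder, in the same order in each cow, so that time and gland cannot be told apart, and there were no cows without DEX. All cows also received ampicillin around the biopsies. Cows 2, 3 and 4 have libraries at all 4 times, which gives 12 libraries, and cow 1 has 3 libraries, at 0, 12 and 24 h. According to the study's text, a cow stopped ruminating within a day of DEX, later passed blood with its faeces and was taken out of the study before the last biopsy. The labels do not say which cow this was. Since cow 1 is the only cow without a 72 h library, the cow that fell ill must have been cow 1. Each library was made from the 3′ ends of transcripts and held between 1804120 and 6228132 reads on genes, the shallowest being cow 4 at 0 h, where a single read was worth 0.579 normalized counts. A gene without a read there could have had up to 1.74 normalized counts (3 reads), and such limits cover counting error only.

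Glucocorticoids such as DEX enter cells and bind the glucocorticoid receptor, a transcription factor that moves to the nucleus and raises or lowers its target genes. Such responses can fade once the hormone is cleared, and they can last longer where the product or the messenger RNA is stable or where a later regulator has been switched on. In the lactating gland, secretory epithelial cells make milk protein, lactose and fat under the control of prolactin, glucocorticoids and local milk removal, and they lie among myoepithelium, stroma, vessels and leukocytes. In whole biopsies, fewer cells of a type and less RNA per cell cannot be told apart. The table of counts lists Ensembl identifiers without gene names, and 0 of its 24616 identifiers could be matched to a symbol. The roles of the members, the cell types of the biopsies and lists of pathway genes were therefore not analysed here. The 2 rises and 2 falls with the largest change at 72 h are given by identifier, and the others by their rank.

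The changes at 24 h were seldom kept. Under the same limits, 287 genes were higher at 24 h in all 3 cows and 198 were lower. Of the 287, 25 were still higher at 72 h, while 23 were lower than at 0 h by the same limits, a mean change of at least 0.5 with all 3 cows below their own 0 h library. Of the 198, 30 were still lower and 3 were above 0 h. The remaining genes lay between these limits or did not move alike in all cows. By direction alone, 27 further genes that rose at 24 h were higher at 72 h in every cow, and 16 further falls were lower. Of all 4795 genes, 17.1% were higher and 13.8% lower in every cow at 72 h. Being higher in every cow at 72 h was thus not particular to genes that rose at 24 h. The share of all genes that met the 72 h limits is not given here. For the 262 genes whose rise was not kept, the median log2 change at 72 h was 0.00197, and for the 168 whose fall was not kept it was -0.0728, against 0.024 over all 4795 genes. The 262 and 168 genes were set apart by missing the 72 h limits, so medians near 0 are partly fixed by that choice. Single genes among them ranged from -2.09 to 0.998 for the rises and from -1.08 to 0.849 for the falls. The members stand towards one end of this spread.

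**Figure D1:**
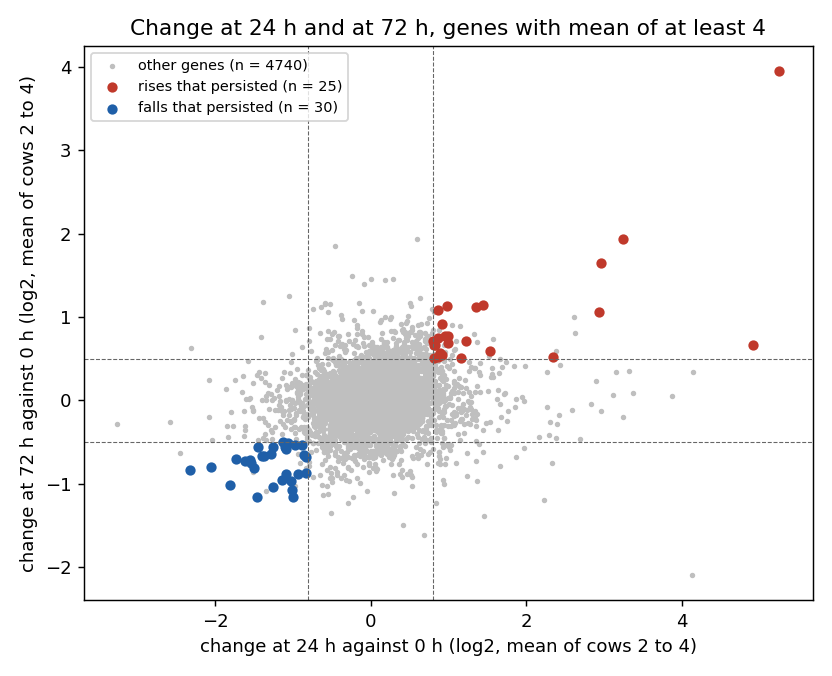
Mean log2 change against 0 h at 24 h (horizontal axis) and at 72 h (vertical axis) in cows 2 to 4 for the 4795 genes whose mean reached 4 normalized counts, with the limits of the selection as dashed lines. The 25 rises (red) and 30 falls (blue) lie at the edge of the cloud, and only the largest rise is far above the rest at 72 h.

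Among the 25 rises, the largest by far was ENSBTAG00000015940. At 0 h it had 54.2 normalized counts in cow 2, 34.6 in cow 3 and 24.3 in cow 4. At 12 h it had 2316, 642 and 113 in the same order of cows, and at 24 h 3124, 2206 and 384. At 72 h it still had 1247, 613 and 228, so that the lowest cow at 72 h lay above the highest cow at 0 h. The mean log2 change was 5.25 at 24 h and 3.95 ± 0.67 at 72 h (SD, n = 3 cows), which left 75.1% of the 24 h change on the log2 scale. The cows kept the same order at all 4 times, with cow 2 highest and cow 4 lowest. The reads behind these values ranged from 42 in cow 4 at 0 h to 17029 in cow 2 at 24 h.

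ENSBTAG00000018481, the second rise by its change at 72 h, was a gene of low abundance. It had 1.1 normalized counts in cow 2, 2.71 in cow 3 and 0.579 in cow 4 at 0 h, which rest on 5, 9 and 1 reads. At 24 h it had 12.8, 19.8 and 16.7, and at 72 h 5.71, 11.1 and 3.76, from 14, 72 and 18 reads. All values at 72 h lay above all values at 0 h. Its log2 changes at 72 h were 1.96, 1.86 and 1.98 in cows 2, 3 and 4, closer to each other than those at 24 h, which were 3.06, 2.66 and 4.00. Because of the few reads at 0 h its size moved with the pseudocount, to 2.26 with a pseudocount of 0.1 and to 1.32 with a pseudocount of 2.

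The third rise was the other abundant gene among the rises. It had 387, 246 and 120 normalized counts at 0 h in cows 2, 3 and 4, then 3730, 2054 and 715 at 24 h and 1560, 940 and 238.5 at 72 h. Here the groups overlapped, since cow 4 at 72 h was below cows 2 and 3 at 0 h, although each cow rose against its own 0 h library. The cows stood in the same order at each time as for ENSBTAG00000015940. Its mean log2 change was 2.97 at 24 h and 1.64 at 72 h.

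**Figure D2:**
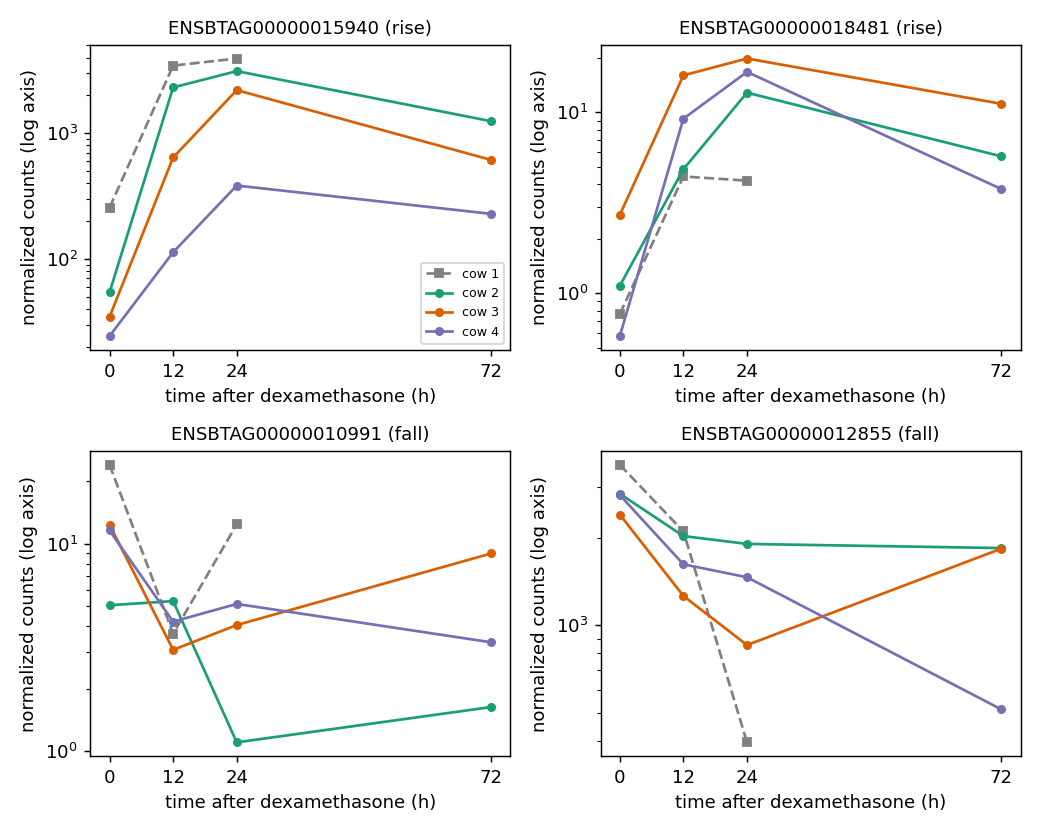
Normalized counts (log axis) by time after DEX for the 2 rises and 2 falls with the largest change at 72 h, with a line for each cow. Cow 1 (grey, dashed) has no library at 72 h, and it starts far above the other cows for ENSBTAG00000015940.

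Below these 3, the rises were small at 72 h and mostly of low abundance. The remaining 22 had log2 changes of 0.503 to 1.15 at 72 h. Some had changed more at 24 h, such as the rises ranked 8 and 22, with 2.93 and 2.34 there against 1.06 and 0.519 at 72 h. The median of the mean normalized count was 10.9 for the 25 rises against 13.2 over all 4795 genes, and 19 of the 25 had a mean under 20. In the shallow 0 h library of cow 4 the rises had a median of 6 reads, and 16 of 25 (64%) had under 10 reads there. Over all 4795 genes the median in that library was 22 reads and 17.2% had under 10. The rises thus rest on few reads at 0 h in cow 4 more often than other genes do. Part of this was shared by the 262 genes whose rise was not kept, with a median of 15 reads there and 35.5% under 10. The rule itself favours rises that are low at 0 h, and the part of this in the result was not tested. In 6 of the 25 (24%), the value at 72 h in some cow lay within what 1 read was worth of its value at 0 h, close to the 23.6% of all 4795 genes.

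A single member met the rule on almost no reads at 72 h. It had 0, 1 and 0 reads at 0 h in cows 2, 3 and 4, then 160, 1093 and 477 at 12 h and 60, 114 and 69 at 24 h. At 72 h it had 1, 3 and 2 reads. Both ends of its 72 h comparison were at or under the limit of 3 reads, so no fold is given, and its changes at 12 h and 24 h depend on the pseudocount.

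Among the 30 falls, the largest change at 72 h was that of ENSBTAG00000010991. It had 5.05, 12.3 and 11.6 normalized counts at 0 h in cows 2, 3 and 4. At 24 h it had 1.1, 4.05 and 5.12, and at 72 h 1.63, 8.97 and 3.35. The groups overlapped at 72 h, since cow 3 at 72 h was above cow 2 at 0 h. The log2 change was -1.16 ± 0.64 at 72 h (SD, n = 3 cows), with -0.44 in cow 3 against -1.38 in cow 2 and -1.65 in cow 4. In cow 2 the value at 72 h rests on 4 reads.

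ENSBTAG00000012855 was by far the most abundant fall. It had 2840, 2407 and 2810 normalized counts at 0 h in cows 2, 3 and 4, a narrow range. At 12 h it had 2030, 1262 and 1622, and at 24 h 1907, 855 and 1464. At 72 h it had 1845, 1837 and 513, all below the lowest value at 0 h. Cow 3 had returned part of the way while cow 4 had fallen further, with log2 changes at 72 h of -0.62, -0.39 and -2.45 in cows 2, 3 and 4. The mean was -1.16, and -0.51 when cow 4 was left out, so that the rank of this gene rests on the 72 h library of cow 4.

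The 28 other falls had log2 changes between -1.08 and -0.503 at 72 h, and the cows differed in many of them, with SDs over the 3 cows of 0.177 to 0.973 (median 0.472). The fourth fall had the widest spread of these, with changes of -0.03, -1.11 and -1.97 in cows 2, 3 and 4. A few falls whose values at 0 h and 72 h did not overlap, chosen after their values were seen, follow as examples. The sixth fall by its change at 72 h had 10.1, 10.8 and 12.2 normalized counts at 0 h and 5.3, 6.65 and 4.39 at 72 h in cows 2, 3 and 4. The thirteenth had 73.5, 64.4 and 66.6 at 0 h and 38.7, 33 and 45.8 at 72 h, from 95 to 335 reads in these libraries. A further fall with over 100 reads at both times, in each cow, had 83, 72.5 and 79.9 at 0 h, 33.4, 32.4 and 29.9 at 24 h and 55.8, 56.9 and 38.9 at 72 h. The thirteenth fall and this gene stood part of the way back at 72 h in all 3 cows. The falls rest on more reads at 0 h than the rises, with a median of 30 reads in cow 4 at 0 h and 1 of 30 genes under 10 reads. For the 168 genes whose fall was not kept, that median was 24 reads and 8.93% had under 10. The median mean of the 30 falls was 9.16 normalized counts, and 25 of 30 had a mean under 20.

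At the limits of the rule, the members shaded into genes outside it. The rise nearest inside the 72 h limit had a log2 change of 0.503 and the nearest outside 0.497. For the falls these values were -0.503 and -0.492. At the 24 h limit, the values were 0.804 inside and 0.798 outside for rises, and -0.832 and -0.793 for falls. A further 23 genes passed both limits upwards in the mean and 10 downwards, but with a cow that moved the other way.

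Members differed in how much of the change was left. Of the change at 24 h, on the log2 scale, a median of 71.9% was left at 72 h for 24 rises (range 22.2% to 126%), leaving out the member with almost no reads at 0 h and 72 h, and 54% for the 30 falls (36.2% to 115%). At least 50% was left in 20 of these 24 rises and 18 of 30 falls, and over 100% in 3 of each. In 12 of the 24 rises and 15 of 30 falls, the value at 72 h was nearer to 0 h than that at 24 h in each of the 3 cows. The rule asked for a smaller change at 72 h (0.5) than at 24 h (0.8), which favours a smaller 72 h change. In the limma fit across all 13525 genes, 3 rises were lower at 72 h than at 24 h at an adjusted p under 0.05, and 4 falls were higher, where 2.39% of all genes tested were lower and 1.18% higher. These 3 rises included the member with almost no reads at 72 h, and the adjusted p of ENSBTAG00000018481 for this difference was 0.139. Since the 24 h and 72 h libraries also chose the members, these counts describe them only.

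**Figure D3:**
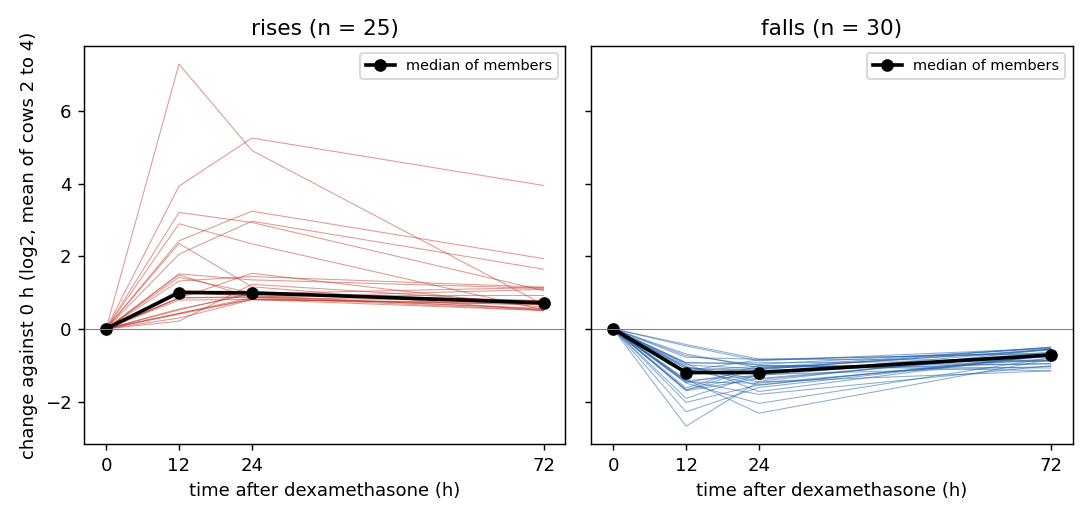
Mean log2 change against 0 h in cows 2 to 4 by time after DEX, with a thin line for each member and the median in black, for 25 rises (left) and 30 falls (right). The line that peaks highest at 12 h is the rise with 0, 1 and 0 reads at 0 h, and its height depends on the pseudocount. The medians were 1.00, 0.99 and 0.72 for the rises and -1.20, -1.20 and -0.72 for the falls at 12, 24 and 72 h.

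The 12 h libraries entered the rule only through the filter on the mean. At 12 h, 25 of 25 rises were higher and 30 of 30 falls were lower than 0 h in the mean of the 3 cows. The direction held in each of the 3 cows for 19 of 25 rises (76%) and 28 of 30 falls (93.3%). Of the 4795 genes, 29.3% were higher and 20.5% lower in every cow. Among genes whose 24 h change was not kept, it held for 212 of 262 rises (80.9%) and 112 of 168 falls (66.7%). For the rises, an early change in every cow was thus not particular to the members. The median log2 change at 12 h was 1.00 for the rises and -1.20 for the falls, close to the medians at 24 h of 0.99 and -1.20. In 10 rises and 14 falls, the change at 12 h was larger than that at 24 h. At an adjusted p under 0.05 in limma, 11 of 25 rises were higher at 12 h (2.27% of all genes tested) and 14 of 30 falls were lower (1.61%). These comparisons share the 0 h libraries with the rule, and nothing is read from the counts. For the contrasts the rule used, limma called 10 rises higher (1.53% of all genes) and 14 falls lower (0.776%) at 24 h.

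At 72 h against 0 h, limma called 0 of the 55 members and 0 of the 13525 genes (0%) at an adjusted p under 0.05. At an unadjusted p under 0.05 it held 14 rises and 19 falls, and 931 genes in all. With cow as a fixed term in limma, 3 rises and no falls passed (0.0222% of all genes tested, the 3 being all the genes called). With edgeR's quasi-likelihood test on the reads, 5 rises and 4 falls passed (0.407%), and with DESeq2 2 rises and no falls (0.163%). The DESeq2 share is over all 13525 genes entered. By default DESeq2 can leave genes with few reads without an adjusted p, so this share is not strictly comparable with the others. The rule used this contrast, so these counts show what the selected genes look like in each model and support nothing further. The values at 0 h and 72 h did not overlap between cows in 14 of 25 rises (6.03% of the 4795 genes were higher without overlap) and in 19 of 30 falls (5.51% lower).

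The size of the change at 72 h depended on cow 4. Cow 4 had the largest change of the 3 cows in 16 of 25 rises (64%) and 23 of 30 falls (76.7%), where 48.2% of all 4795 genes had their largest 72 h change, in either direction, in that cow. The median log2 changes of the rises at 72 h were 0.59, 0.68 and 1.00 in cows 2, 3 and 4. For the falls it was -0.68, -0.35 and -1.12. Over all 4795 genes, the 72 h changes of these cows had SDs of 0.47, 0.43 and 0.69, and the 24 h changes 0.68, 0.66 and 0.73. The 2 libraries of cow 4 in this comparison were the shallowest library at 0 h and the library with the lowest total of normalized counts in the file, 781910 at 72 h. The 72 h library of cow 4 held 3740033 reads, more than the 2360591 of cow 2 at 72 h. Whether depth or scaling bears on the larger changes in cow 4 was not tested. When the rule was applied to cows 2 and 3 alone, 34 rises and 30 falls were found, of which 12 and 11 were members. In these cows, 13 of the 25 rises and 19 of the 30 falls thus no longer met the rule. Limma without cow 4 called 1 rise and no falls at 72 h against 0 h (0.00766% of all genes tested). Without cow 2, 19 and 24 of the members met the rule, and without cow 3, 20 and 27.

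**Figure D4:**
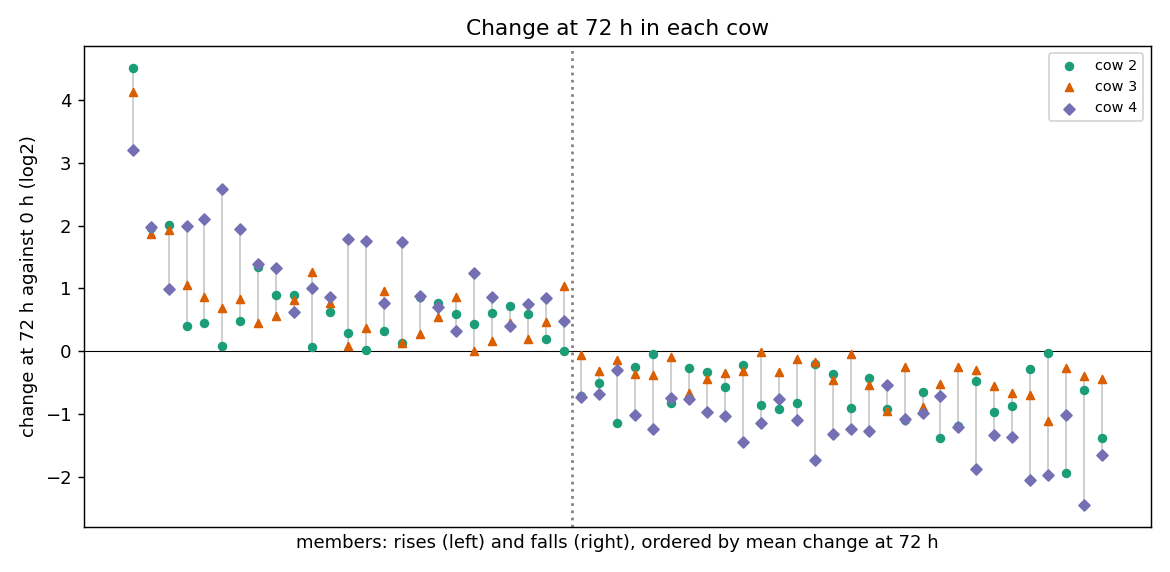
Log2 change at 72 h against 0 h of the same cow for each of the 55 members, with a symbol for each cow. Diamonds (cow 4) lie farthest from 0 in 16 of 25 rises and 23 of 30 falls.

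Cow 1 was not used by the rule. Its 0 h and 24 h libraries give the change at 24 h in a further cow, the one that fell ill and stopped ruminating within a day of DEX. In cow 1, 24 of 25 rises were higher at 24 h than at 0 h and 27 of 30 falls were lower, where 46.6% of the 4795 genes were higher and 53.4% lower in this cow. The median log2 change in cow 1 was 1.09 for the rises and -0.96 for the falls, against -0.0576 over all genes. The rise that was lower in cow 1 went from 8.95 to 2.35 normalized counts. Genes whose 24 h change was not kept to 72 h moved alike in cow 1, with 231 of 262 rises higher (88.2%) and 152 of 168 falls lower (90.5%). At 12 h in cow 1, 19 of 25 rises were higher (52.8% of all genes) and 30 of 30 falls were lower (47.2%). Among the genes not kept to 72 h, 220 of 262 rises were higher (84%) and 123 of 168 falls lower (73.2%) at that time. This is a single cow, so no test is given.

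The persistence to 72 h had no such check, because cow 1 has no library at 72 h. The 72 h libraries of cows 2 to 4 can be set against the 0 h library of cow 1, but they also chose the members, so the counts that follow are partly fixed by the rule and are a description. Against that 0 h library, the 72 h libraries of cows 2 to 4 were higher in 19 of 25 rises, where 48.1% of all 4795 genes were, and lower in 23 of 30 falls, where 51.9% were. The median log2 difference was 0.54 for the rises and -0.48 for the falls, smaller than the 0.72 and -0.72 against the cows' own 0 h libraries. At 0 h, the rises were lower in cows 2 to 4 than in cow 1, with a median difference of -0.25, and the falls were higher, with a median of 0.25. Over all 4795 genes this difference was -0.0343. The comparison sets different cows against each other, so that differences between cows enter it, and no test is given.

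Single members varied in this respect. ENSBTAG00000015940 had 256 normalized counts in cow 1 at 0 h, well above the 24.3 to 54.2 of the other cows, and then 3454 at 12 h and 3935 at 24 h. Its 72 h values in cows 2 to 4 were on average 1.13 above cow 1 at 0 h on the log2 scale, instead of 3.95 above their own 0 h. Cow 4 at 72 h, with 228, was below that value. The third rise had 876 in cow 1 at 0 h and was 0.31 lower on average at 72 h than this (log2 difference -0.31), so its direction depended on which 0 h library was taken. ENSBTAG00000018481 had 0.767 in cow 1 at 0 h, from 3 reads, and its 72 h values were 2.41 higher on the log2 scale. ENSBTAG00000010991 and ENSBTAG00000012855, with 24 and 3574 in cow 1 at 0 h, were lower at 72 h by log2 differences of -2.52 and -1.57. In cow 1 itself these falls had 3.68 and 2106 at 12 h, then 12.4 and 394.9 at 24 h. ENSBTAG00000010991 was thus higher at 24 h than at 12 h in that cow, while ENSBTAG00000012855 was lower.

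**Figure D5:**
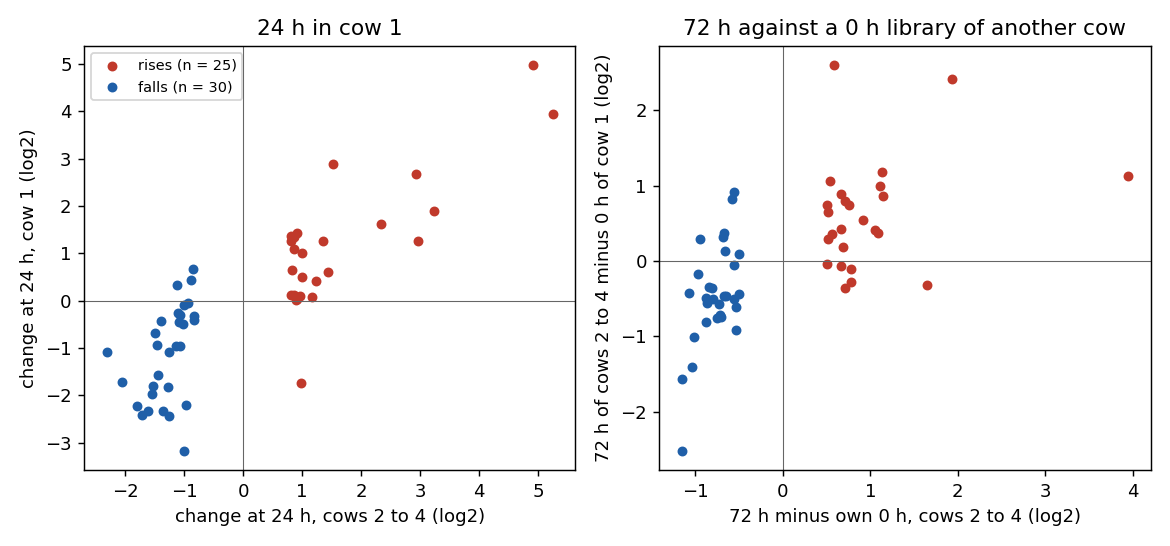
Left, log2 change at 24 h in cow 1 against the mean of cows 2 to 4 for each member, with 24 of 25 rises (red) and 27 of 30 falls (blue) on the side of their own direction. Right, the 72 h libraries of cows 2 to 4 set against the 0 h library of cow 1 (vertical axis) and against their own (horizontal axis), with 19 and 23 on that side.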

How the data were processed

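RNA of mammary biopsies was sequenced from QuantSeq 3′ libraries. The authors trimmed reads with HTStream, aligned them with STAR (2.6.0c) to Bos taurus UMD3.1 and counted them on Ensembl genes. The values that the authors deposited are a signal, CPM adjusted by a scaling factor for each library. Samples were grouped by cow and time from their titles, and each column matched a sample. Reads were recovered from the value of a single read in each library, with 100% of values whole within 0.05 reads.

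Changes are differences of log2(normalized count + 0.5). The fit was limma (3.58.1, R 4.3.3) with a trended prior over 13525 genes with a read in cows 2 to 4, with time as the factor, the correlation within cows from duplicateCorrelation, and Benjamini-Hochberg adjustment. Numbers of cows pair the samples because they mark the same animal. Deviations of libraries of a cow correlated at over 0.1 in 18 of 18 pairs (median 0.276). The within-cow correlation that limma estimated and used was 0.0179, so the pairing had little weight in its p-values. They rest on the spread of the 12 libraries of 3 cows about the means of the 4 times, moderated by the trended prior. Members, rule and alternatives were chosen with earlier results of these data known. Named by identifier were the 2 rises and 2 falls with the largest change at 72 h; the rule also allowed names from gene lists, which were not used here for want of symbols. edgeR (4.0.16) and DESeq2 (1.42.0), on recovered reads with cow as a fixed term, and limma-voom were alternatives. The refseq table used (ARS-UCD2.0) holds no Ensembl identifiers.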

Additional observations from a re-analysis of the deposited data

Results flagged for a closer look

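Levels of the 4 genes given by identifier, and the median log2 levels of the rises and of the falls, were examined at 0, 12 and 24 h for a cow far from the others, in 18 groups of 4 cows. For normally distributed values, chance exceeds Dixon's critical value in about 1 of 20 groups, or 0.9 groups here, and 1 did. ENSBTAG00000015940 had 255.9 normalized counts in cow 1 at 0 h against 24.3 to 54.2 in cows 2 to 4, with a gap over range of 0.871. This gap was taken on normalized counts, not on the log2 scale used for the changes. It is smaller on the log2 scale, so the flag depends on the scale. Cow 1 took no part in choosing the members.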

How the results depend on the processing

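The number of rises (25) and falls (30) depended on the limits. They were 9 and 18 with a pseudocount of 2, 13 and 13 with a mean of at least 10, and 96 and 160 with no filter on the mean. With both limits at 0.5 they were 59 and 52, and with both at 1 they were 6 and 5. With the 0 h library of cow 1 in place of each cow's own they were 197 and 117, of which 10 and 11 were members. Leaving out a cow gave 34 to 106 rises and 30 to 71 falls, with fewer cows required to move alike. Without cow 2 they were 106 and 69, without cow 3 72 and 71, and without cow 4 34 and 30. The cause of these differences was not tested. With reads thinned to the shallowest library, an alternative chosen after seeing the data, 53 rises and 31 falls were found, of which 16 and 20 were members. With median-ratio scaling, quantile normalization and totals that left out the 20 most abundant genes, the rises numbered 21, 24 and 18, of which 19, 21 and 14 were members, and the falls 33, 35 and 32, of which 29, 29 and 27 were. The last of these scalings shifted the median gene at 24 h to -0.105.

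Of the members called in limma, 24 at 24 h became 42 with edgeR, 12 with a constant prior variance and 9 to 14 without a cow. The 25 at 12 h became 42 with edgeR and 11 to 14 without a cow. The 7 that differed between 24 h and 72 h became 14 with edgeR, 4 with a constant prior variance, 11 with cow as a fixed replicate block and 2 to 5 without a cow. The 0 at 72 h became 3 with cow as a fixed block, 9 with edgeR, 2 with DESeq2 and 0 to 1 without a cow, the 1 being without cow 4. Without the replicate block these counts were 20, 23, 6 and 0. At 72 h against 0 h, edgeR called 55 of all 13525 genes (0.407%), where the main fit called 0. The shares of all genes that the alternatives called in the other comparisons are not given here. A higher or lower count there cannot be read as a result about the members. In cow 1, 51 members moved the same way at 24 h, and for 42 the 72 h libraries of cows 2 to 4 lay on that side of the 0 h library of cow 1. Only 13 rises and 13 falls had a mean of at least 10, and among these smaller sets together the counts were 24 and 21. Over all 55 members, leaving out a cow gave 44 for the comparison with the 0 h library of cow 1. The cause of the other shifts was not tested. No change at 72 h of the 4 genes given by identifier reversed. Depth limits the changes of the 16 rises with under 10 reads in cow 4 at 0 h.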
